A study of Mus musculus with 8 samples.

Results

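Interleukins and interleukin receptors were described in the ovaries of obese LY mice, as 75 of the 18069 named genes on the array. A gene was included when its symbol in the platform annotation began with Il and a digit, which took in ligands, receptors, binding proteins, antagonists and 1 enzyme, and each gene was represented by its brightest probe over the 8 arrays. The study compared 4 vehicle-treated with 4 pioglitazone-treated mice, all females heterozygous for the Lethal Yellow allele (Ay/a) on the C57BL/6J background. Treatment was by daily gavage for 60 days, from 120 to 180 days of age, with 0.1 mg of pioglitazone per day according to the labels, a dose that differs from that in the methods, or with the DMSO vehicle alone. Whole-ovary RNA of each mouse was hybridised to 1 array, so each value below is 1 mouse, and the estrous stage was not given in the sources used here. All mice carried the obesity allele, and lean mice were not analysed here.

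Interleukins are small secreted proteins through which immune and tissue cells signal to each other. Most bind paired receptor chains, in which a private chain recognises the ligand and a chain shared within a family (the gp130 protein encoded by Il6st, the IL-10 receptor beta chain, the common gamma or the common beta chain) starts signalling through JAK kinases and STAT factors, whereas receptors of the IL-1 family signal through MyD88 and IRAK kinases towards NF-kB. In the ovary, IL-1 and IL-6 family ligands take part in the inflammation-like events of ovulation. Pioglitazone is an agonist of the nuclear receptor PPARγ, which is known for restraining cytokine genes in macrophages.

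The 250 bases before the start sites of Il5 and Il21 are shown, since these were the ligands whose values did not overlap between the groups (below). In all, 3 of the 71 members tested had such groups, a share close to the 4.18% of named genes. Among them, Il22ra2 entered the test only through its vehicle mean, so its place in this count supports nothing. The sequences are from the RefSeq annotation of mouse build GRCm38.p6, at chr11:53720544-53720793 (plus strand) for Il5 and chr3:37232637-37232886 (minus strand) for Il21. Capitals mark the letters AATAAAT, which begin 32 bases before the start site in Il5 and 30 bases before it in Il21.
Il5: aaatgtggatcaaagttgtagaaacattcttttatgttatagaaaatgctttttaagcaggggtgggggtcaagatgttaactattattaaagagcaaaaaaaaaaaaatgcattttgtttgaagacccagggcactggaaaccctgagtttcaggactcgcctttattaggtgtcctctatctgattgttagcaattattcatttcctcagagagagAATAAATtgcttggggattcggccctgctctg
Il21: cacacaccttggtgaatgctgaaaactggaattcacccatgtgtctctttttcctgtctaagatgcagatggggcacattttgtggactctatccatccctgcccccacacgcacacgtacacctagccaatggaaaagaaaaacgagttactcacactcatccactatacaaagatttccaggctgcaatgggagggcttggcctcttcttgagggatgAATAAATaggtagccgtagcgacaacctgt

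This AT-rich word was chosen after the sequences had been read, and it was in 8.45% of the 71 windows of the 58 members in the table and in 6.03% of all 32851 windows of 300 bases, counted on both strands. Neither printed stretch held any of the other motifs searched. The core word of nuclear receptor sites, AGGTCA, was in 16.9% of the member windows and 16.3% of all windows, and the direct repeat of that word with a 1-base gap, the form bound by PPARγ with RXR, was in 0 member windows and 0.0396% of all windows. The STAT word TTCNNNGAA was in 14.1% against 8.3%, the AP-1 word TGANTCA in 18.3% against 7.81%, and the NF-kB consensus in 11.3% against 8.46%. Each direct repeat also holds the core word. These shares describe letters in short windows.

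Each array's deposited median lay between 1.007 and 1.014 relative intensity units, 82.5 to 83.9% of probes were at or above 0.2 units, the limit of sensitivity named in the methods, and between 47 and 211 spots were missing. All values below are linear intensities divided by the array median. Ovarian markers were clearly measured, with Zp3, an egg coat protein of oocytes, between 29.5 and 62.8 units and Inha, the inhibin alpha chain of granulosa cells, between 23.0 and 70.0 units over the 8 mice. Cd3e, a defining chain of the T-cell receptor complex, was under 0.2 on all 8 arrays, whereas Cd3d lay between 2.05 and 3.26 units. In this bulk tissue, fewer cells of a type and less RNA per cell cannot be told apart.

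Most members had dim probes. The mean over 8 arrays was at least the array median for 26 members (34.67%), against 60.66% of all named genes, and at least 5 units for 9 members. Every member had a value on all 8 arrays, and 53 were at 0.2 or more on each of them, while the other 22 fell under 0.2 on at least 1 array and none did so on all 8. The mean over 8 arrays was under 0.2 for 8 members, namely Il17a, Il1a, Il1rapl1, Il1rl2, Il2, Il4, Il6ra and Il9r. Of these, Il17a, Il1a, Il1rl2 and Il6ra were under 0.2 in both group means and were not tested, which left 71 members tested (94.67%, against 88.91% of named genes). Of the tested members, 8 had 1 group mean under 0.2 and passed the filter only through the other group (Il10, Il10ra, Il1rapl1, Il2, Il22ra2, Il34, Il4 and Il9r). Signals of different probes do not rank the abundance of different transcripts.

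**Figure D1:**
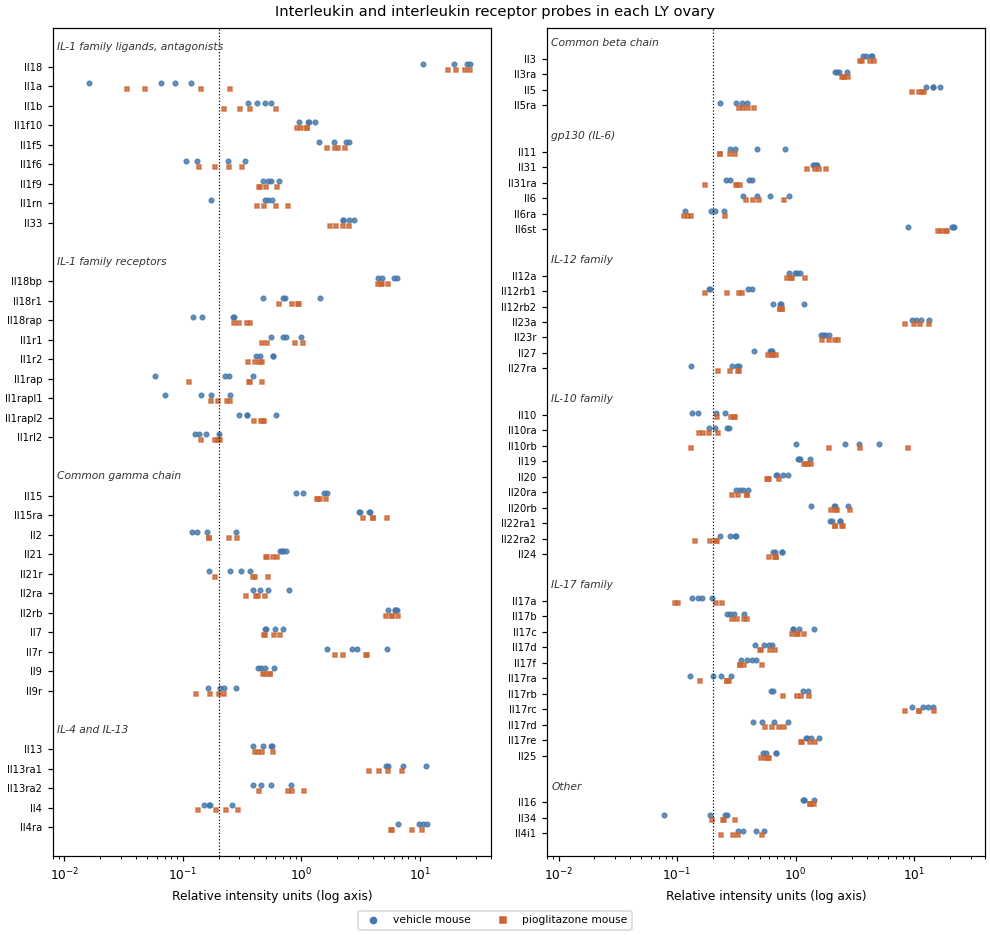
Relative intensity of each member (horizontal log axis, array median at 1) in 4 vehicle (circles) and 4 pioglitazone (squares) mice, grouped by family, with the dotted line at 0.2. The mice of both groups share one range for nearly every member, and 9 members, among them Il18, Il6st and Il5, have means of at least 5 units.

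Few of these genes differed between pioglitazone-treated and vehicle-treated ovaries. In limma, 6 of the 71 members (8.451%) had an unadjusted p under 0.05, against 4.85% of all named genes tested. Il18rap and Il10 were higher with pioglitazone (2 members, background 1.57%), and Il5, Il21, Il22ra2 and Il11 were lower (4 members, background 3.27%). The groups did not overlap for Il5, Il21 and Il22ra2 (3 members, background 4.18% of named genes). With adjustment over all probes tested, 0 members passed by limma, as did 0.0% of named genes, and the smallest adjusted p of a member was 0.8374. With the mouse number as a block, 7 members were under the unadjusted threshold, against a background of 8.02%, and 0 members passed the adjusted one. Il10 and Il22ra2 entered the test only through their higher group, the other group mean being under 0.2, so their place in these counts supports nothing. The methods' t-test on the same values put 5 members under the unadjusted threshold (Il10, Il20, Il21, Il22ra2 and Il5, background 6.45%) and 0 under the adjusted one.

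The median log2 fold change of the tested members, pioglitazone minus vehicle, was -0.03, and that of all named genes was -0.04. It was negative for 38 members (53.52%) and positive for 33, against 56.63% negative among named genes. The estimates ran from -0.71 for Il11 to 0.76 for Il18rap. Their 95% intervals had a median half-width of 0.46 on the log2 scale, and for 57 of the 71 members the whole interval lay inside a 2-fold change in either direction. The spread between mice of a group, as a standard deviation of log2 values, had a median of 0.30 for the members and 0.30 for all named genes.

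**Figure D2:**
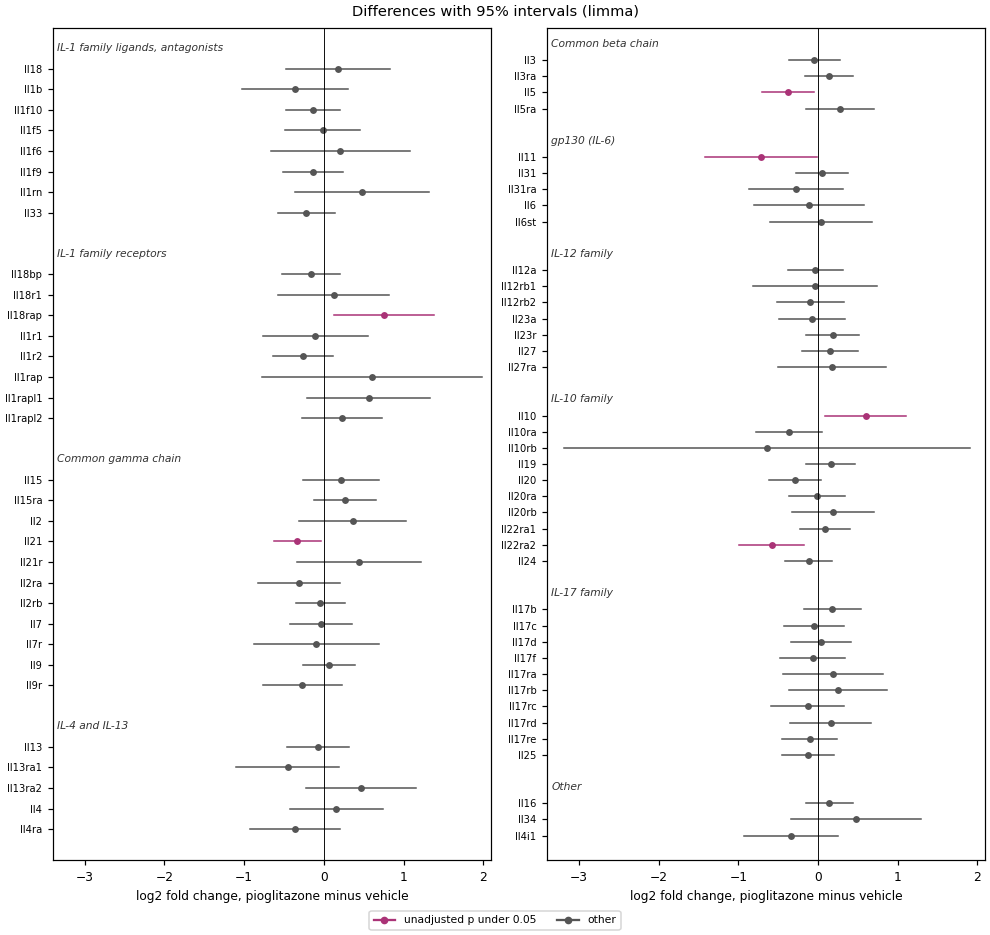
Log2 fold change (pioglitazone minus vehicle, horizontal axis) of the 71 tested members with the 95% interval from limma, 4 mice per group, grouped by family. Coloured points mark the 6 members at an unadjusted p under 0.05, which lie in 5 families, and none passed the adjusted threshold.

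Among the ligands (33 members, 31 tested), Il5, Il21 and Il11 were lower and Il10 was higher at the unadjusted threshold. The background over all named genes tested was 4.85% in either direction, and Il10 entered the test only through its pioglitazone mean. Il5 encodes the growth and survival factor of eosinophils and lies at chr11:53720794-53725103 (GRCm38.p6). Its values were 14.3, 14.3, 16.7 and 12.5 units in vehicle mice 1 to 4 and 12.2, 11.7, 11.0 and 9.69 units in pioglitazone mice 1 to 4. Every pioglitazone mouse was below every vehicle mouse, by a narrow gap between vehicle mouse 4 and pioglitazone mouse 1. The group means were 14.5 ± 1.70 and 11.1 ± 1.07 units (SD, n = 4 each), a ratio of 0.769, with a log2 fold change of -0.38 (SE 0.15, limma p = 0.028, adjusted p = 0.84, 2-sided exact permutation p = 0.029). The exact p is the smallest that the 70 assignments of 8 mice to groups allow. The limma p was no longer under 0.05 without vehicle mouse 1, 2 or 3 (log2 fold changes of -0.38, -0.38 and -0.31) or without pioglitazone mouse 3 or 4 (-0.37 and -0.31). The eosinophil granule genes Prg2 and Epx lay at 0.361 to 0.533 and 0.569 to 0.718 units in vehicle mice and at 0.428 to 0.560 and 0.674 to 0.886 units in pioglitazone mice.

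Il21, a helper T-cell product that drives B-cell responses, lies at chr3:37222759-37232636. It measured 0.697, 0.688, 0.741 and 0.658 units in the vehicle mice and 0.576, 0.616, 0.505 and 0.514 units in the pioglitazone mice. The groups did not overlap, and the spread within each was small. The means were 0.696 ± 0.0344 and 0.553 ± 0.0528 units (SD, n = 4 each), a ratio of 0.794, with a log2 fold change of -0.34 (SE 0.13, limma p = 0.029, adjusted p = 0.84, 2-sided exact permutation p = 0.029). Without vehicle mouse 1 or 2 (-0.33 and -0.34) or pioglitazone mouse 3 or 4 (-0.29 and -0.30) the limma p was not under 0.05. The receptor gene Il21r had means of 0.272 ± 0.0860 and 0.379 ± 0.140 units and did not pass the test.

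Il11, a gp130 ligand known for its part in decidualisation of the uterus, lies at chr7:4772373-4782907. The vehicle mice read 0.307, 0.809, 0.477 and 0.283 units and the pioglitazone mice 0.309, 0.281, 0.231 and 0.231 units. Vehicle mice 2 and 3 stood above all others, and vehicle mice 1 and 4 lay within the pioglitazone range. Its means were 0.469 ± 0.242 and 0.263 ± 0.0388 units (SD, n = 4 each), a ratio of 0.561, with a log2 fold change of -0.71 (SE 0.31, limma p = 0.048, adjusted p = 0.84, 2-sided exact permutation p = 0.11). Without vehicle mouse 2 the log2 fold change was -0.41, and the limma p was also above 0.05 without vehicle mouse 3 (-0.66) or pioglitazone mouse 2, 3 or 4 (-0.75, -0.66 and -0.66). A dimmer second probe for Il11 had means of 0.185 and 0.0905 units and was not tested, and its highest value, 0.447, was also in vehicle mouse 2.

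Il10, the main anti-inflammatory interleukin, lies at chr1:131019845-131024970. Its vehicle values were 0.252, 0.134, 0.215 and 0.150 units and its pioglitazone values 0.301, 0.284, 0.218 and 0.306 units. Vehicle mice 2 and 4 were under the limit of 0.2, and pioglitazone mouse 3 lay inside the vehicle range. The means were 0.188 ± 0.0554 and 0.277 ± 0.0407 units (SD, n = 4 each), so that the vehicle group was not above the limit and no ratio is given. As a description, the log2 fold change was 0.60 (SE 0.23, limma p = 0.026, adjusted p = 0.84, 2-sided exact permutation p = 0.057), and with values under 0.2 raised to 0.2 it was 0.35 and the limma p was above 0.05. The limma p was above 0.05 without vehicle mouse 2 or 4 (0.45 and 0.50) or pioglitazone mouse 1, 2 or 4 (0.55, 0.58 and 0.54).

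Of the receptors (34 members, 32 tested), Il18rap alone was under the unadjusted threshold, against 4.85% of named genes. It encodes the accessory chain that completes the receptor for IL-18 and lies at chr1:40515362-40551707. The vehicle mice read 0.265, 0.145, 0.122 and 0.272 units, with vehicle mice 2 and 3 under 0.2, and the pioglitazone mice 0.299, 0.349, 0.368 and 0.271 units. The groups met at 0.27 units. Means were 0.201 ± 0.0786 and 0.322 ± 0.0448 units (SD, n = 4 each), a ratio of 1.60, and the log2 fold change was 0.76 (SE 0.28, limma p = 0.023, adjusted p = 0.84, 2-sided exact permutation p = 0.057). The limma p was above 0.05 without vehicle mouse 2 or 3 (0.63 and 0.54) or pioglitazone mouse 2 or 3 (0.71 and 0.69). Il18r1, the ligand-binding chain of the same receptor, had means of 0.832 ± 0.416 and 0.843 ± 0.143 units.

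Among the 4 decoy receptors and binding proteins, which capture a ligand without signalling, Il22ra2 was lower at the unadjusted threshold (background 3.27%). It encodes the soluble binding protein of IL-22 and lies at chr10:19622028-19634681. Its values were 0.307, 0.232, 0.316 and 0.279 units in vehicle mice and 0.213, 0.190, 0.219 and 0.141 units in pioglitazone mice. The groups did not overlap, but pioglitazone mice 2 and 4 were under the limit of 0.2. The means were 0.283 ± 0.0377 and 0.191 ± 0.0352 units (SD, n = 4 each), so that the pioglitazone group was not above the limit and no ratio is given. As a description, the log2 fold change was -0.58 (SE 0.18, limma p = 0.011, adjusted p = 0.84, 2-sided exact permutation p = 0.029). A dimmer second probe for Il22ra2 had means of 0.108 and 0.192 units, in the opposite direction, and was not tested, since both were under 0.2.

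**Figure D3:**
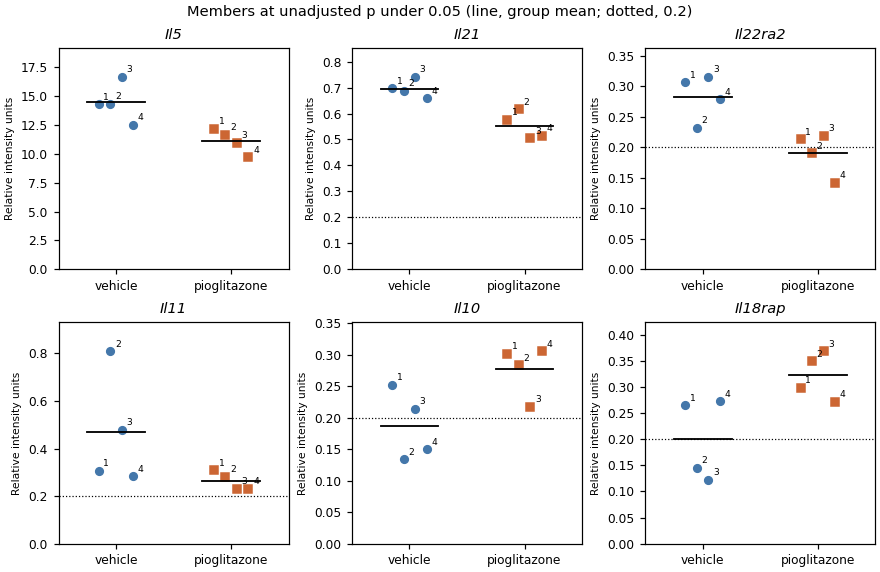
Relative intensity (linear vertical axes from 0) of the 6 members at an unadjusted p under 0.05, with 1 numbered point per mouse, lines at the group means and the dotted line at 0.2. Il5, Il21 and Il22ra2 show no overlap between vehicle and pioglitazone mice, the pioglitazone mean of Il22ra2 and the vehicle mean of Il10 lie under 0.2, and 1 vehicle mouse at 0.809 units raises the vehicle mean of Il11.

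The other decoys did not pass the test. Il13ra2, which captures IL-13, measured 0.388, 0.555, 0.454 and 0.821 units in vehicle mice and 0.441, 1.04, 0.770 and 0.826 units in pioglitazone mice, so that each pioglitazone mouse was above the vehicle mouse of the same number. Its log2 fold change was 0.47 (SE 0.31), with a limma p of 0.16, and of 0.046 with the mouse number as a block. Il18bp, which neutralises IL-18, measured 6.45, 6.08, 4.43 and 4.79 units against 4.46, 5.36, 4.68 and 4.79 units (means 5.44 ± 0.978 and 4.82 ± 0.381, log2 fold change -0.16, SE 0.16). The groups overlapped, with vehicle mice 1 and 2 at the top. Il1r2, the decoy receptor of IL-1, had means of 0.505 ± 0.0847 and 0.419 ± 0.0498 units.

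For Il6st and Il18, both among the brightest members, the largest departure was a single mouse. Il6st, which encodes gp130, measured 21.8, 21.2, 8.86 and 20.8 units in vehicle mice and 18.9, 16.9, 15.9 and 18.7 units in pioglitazone mice (means 18.2 ± 6.23 and 17.6 ± 1.45, log2 fold change 0.04, SE 0.28). Vehicle mouse 3 was far below every other mouse, and the remaining vehicle mice were above all pioglitazone mice. Without vehicle mouse 3 the log2 fold change of Il6st was -0.28. Il18, an IL-1 family ligand released after cleavage by caspase-1, measured 26.4, 24.9, 10.6 and 19.5 units against 26.2, 17.2, 24.1 and 20.2 units (means 20.3 ± 7.12 and 21.9 ± 4.01, log2 fold change 0.17, SE 0.29). Here too vehicle mouse 3 was the lowest, and without it the log2 fold change was -0.11. Low readings of this mouse were not particular to Il6st and Il18. Outside the members, it was also the lowest for Tab2 (10.0 units, other mice 16.6 to 20.2) and Jak2 (0.661, others 1.38 to 2.11). It was the highest for Irak1 (28.7 units, others 11.2 to 18.8). These genes were picked after their values were seen, and the cause was not tested.

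Receptor chains of the IL-4 and IL-13 system were also bright. Il4ra, the chain that both ligands use, measured 9.77, 11.4, 10.7 and 6.58 units in vehicle mice and 5.85, 10.3, 8.50 and 5.66 units in pioglitazone mice (means 9.62 ± 2.13 and 7.59 ± 2.24, log2 fold change -0.36, SE 0.25, and -0.07 with array weights). Each pioglitazone mouse was below the vehicle mouse of the same number, while the groups overlapped. Il13ra1, its partner for IL-13, measured 7.19, 11.3, 5.42 and 5.14 units against 7.08, 4.55, 5.41 and 3.70 units (means 7.26 ± 2.85 and 5.19 ± 1.44, log2 fold change -0.45, SE 0.29). Without vehicle mouse 2, the brightest, the log2 fold change of Il13ra1 was -0.21. The ligands were dim, with Il13 at 0.495 ± 0.0788 and 0.469 ± 0.0717 units and Il4 at 0.186 ± 0.0482 and 0.211 ± 0.0665 units.

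The remaining bright members showed small estimates. Il17rc, a receptor chain for IL-17A and IL-17F, measured 14.3, 13.0, 11.9 and 9.52 units in vehicle mice and 14.8, 8.41, 10.9 and 10.9 units in pioglitazone mice (means 12.2 ± 2.04 and 11.3 ± 2.65, log2 fold change -0.13, SE 0.20). Il23a, the p19 subunit of IL-23, measured 13.4, 9.61, 10.3 and 11.5 units against 13.5, 10.0, 8.35 and 11.2 units (means 11.2 ± 1.67 and 10.8 ± 2.15, log2 fold change -0.07, SE 0.18). For both, the pioglitazone values spanned the whole vehicle range. Il2rb, a chain shared by the IL-2 and IL-15 receptors, measured 6.39, 5.33, 6.10 and 6.15 units against 5.84, 5.15, 5.79 and 6.50 units (means 5.99 ± 0.461 and 5.82 ± 0.554), and the 95% interval of its log2 fold change was -0.35 to 0.26.

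Il10rb, the shared beta chain of the IL-10 family receptors (chr16:91406157-91425834), was singled out after its values had been seen. It measured 1.00, 5.11, 3.44 and 2.63 units in vehicle mice and 0.131, 3.49, 8.85 and 1.93 units in pioglitazone mice. Pioglitazone mouse 1 was under the limit of sensitivity and pioglitazone mouse 3 was the brightest of all. Its spread within groups was larger than that of 99.94% of named genes, and the 95% interval of its log2 fold change ran from -3.19 to 1.90. Mice 2 and 3 were above mice 1 and 4 in both groups for Il10rb, Il1r1, Il4ra and Il6 (5.634% of members, 7.73% of named genes), and below them in both groups for Il12a, Il17rb, Il17rd, Il22ra1, Il23a and Il2rb (8.451% of members, 9.811% of named genes). Il1rap, the accessory chain of IL-1 family receptors, had a spread larger than that of 98.18% of named genes, with values between 0.0585 and 0.462 units. Part of this spread lay under the limit of sensitivity, with vehicle mouse 3 at 0.0585 and pioglitazone mouse 1 at 0.112 units. Dimmer probes for Il1rap had both group means under 0.2 and were not tested.

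**Figure D4:**
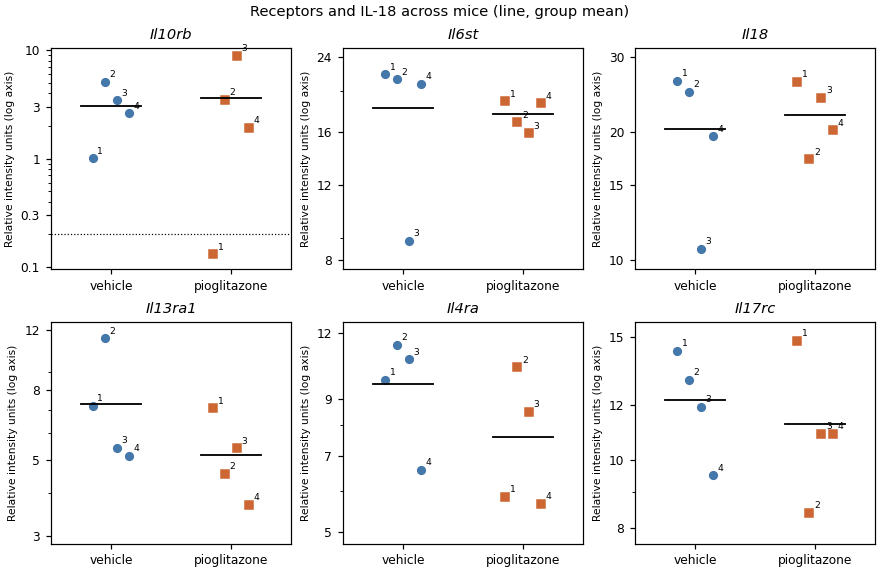
Relative intensity (log vertical axes, with a separate range in each panel) of Il10rb and 5 bright members, with 1 numbered point per mouse and lines at the arithmetic group means. Vehicle mouse 3 lies far below the other vehicle mice for Il6st and Il18, and Il10rb runs from 0.131 to 8.85 units within the pioglitazone group.

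In the IL-1 family, 0 of the 8 ligands and antagonists tested were under the unadjusted threshold in limma. Il1b, the inflammasome-dependent ligand, had means of 0.459 ± 0.0881 and 0.376 ± 0.168 units, Il33 of 2.44 ± 0.256 and 2.11 ± 0.328 units, and Il1rn, the antagonist of the IL-1 receptor, of 0.438 ± 0.178 and 0.570 ± 0.151 units. Il1a lay between 0.0162 and 0.248 units, at the bottom of the range. The IL-36 and IL-38 genes read 0.202 and 0.220 units for Il1f6, 0.549 and 0.501 for Il1f9, 2.04 and 1.98 for the antagonist Il1f5, and 1.14 and 1.03 for Il1f10. Among the receptor genes, the signalling receptor Il1r1 had means of 0.749 ± 0.183 and 0.720 ± 0.278 units, Il1rap of 0.231 and 0.326, Il1rapl1 of 0.158 and 0.215, and Il1rapl2 of 0.400 and 0.451, and Il1rl2, the IL-36 receptor, lay between 0.126 and 0.204. The median log2 fold change was -0.08 over the ligands and antagonists and 0.17 over the 8 tested receptor and binding protein genes of the family.

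In the common gamma chain family, Il21 was the 1 of 11 members under the unadjusted threshold, against 4.85% of named genes. The median log2 fold change of the family was -0.04. Il15, a survival factor of NK cells, had means of 1.28 ± 0.370 and 1.44 ± 0.117 units, and Il15ra, which presents it, of 3.42 ± 0.375 and 4.16 ± 0.823 units. Il7 and Il7r, which sustain lymphocytes, had means of 0.571 and 0.555 units and of 3.14 ± 1.51 and 2.80 ± 0.840 units. The T-cell growth factor gene Il2 (0.173 and 0.215) and Il9r (0.217 and 0.180) were near the limit, and Il2ra (0.535 and 0.419) and Il9 (0.492 and 0.511) were somewhat above it. Markers of T and NK cells (11 of 12 listed were on the array) summed to 14.4 to 18.5 units in vehicle mice and 13.5 to 17.3 units in pioglitazone mice, and their part in these values was not tested.

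In the common beta chain family, beside Il5, Il3 had means of 4.10 ± 0.319 and 3.98 ± 0.498 units, Il3ra of 2.37 ± 0.263 and 2.58 ± 0.121 units, and Il5ra of 0.323 ± 0.0681 and 0.387 ± 0.0494 units. None of these passed the test. Of the gp130 family, Il6, the acute-phase interleukin, had means of 0.580 ± 0.221 and 0.529 ± 0.183 units with an interval of its log2 fold change from -0.81 to 0.57, and its private receptor gene Il6ra lay between 0.115 and 0.254 units. The itch-related ligand Il31 had means of 1.46 and 1.52 units and Il31ra of 0.344 and 0.287 units. A dimmer tested probe for Il6st had means of 0.474 and 0.534 units, and vehicle mouse 3 was again the lowest, with 0.399 units against 0.460 to 0.522 in the other vehicle mice. A still dimmer probe, with both group means under 0.2, was not tested. On it vehicle mouse 3 read 0.203 units, within the 0.148 to 0.243 of the other vehicle mice.

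In the IL-10 family, Il10 and Il22ra2 were under the unadjusted threshold in opposite directions (background 4.85%). Both entered the test only through their higher group. The median log2 fold change of the 10 members was -0.07. Il20, a ligand that acts mainly on epithelia, had means of 0.755 ± 0.0843 and 0.620 ± 0.0704 units, Il19 of 1.13 and 1.26 units, and Il24 of 0.715 and 0.658 units. The receptor genes read 0.234 and 0.182 units for Il10ra, 0.352 and 0.350 for Il20ra, 2.10 and 2.33 for Il20rb, and 2.19 and 2.32 for Il22ra1. A second probe for Il20rb went the other way, with means of 0.530 and 0.404 units.

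In the IL-12 family, 0 of 7 members were under the unadjusted threshold in limma. Il12a, the p35 subunit, had means of 0.991 and 0.974 units, Il27 of 0.576 and 0.636 units, Il23r of 1.76 ± 0.127 and 2.01 ± 0.280 units, Il12rb1 of 0.300 and 0.282, Il12rb2 of 0.830 and 0.757, and Il27ra of 0.268 and 0.289. In the IL-17 family, 0 of 10 tested members were, and the estimates ran from -0.13 to 0.25. Il17a, the ligand that recruits neutrophils, lay between 0.0963 and 0.241 units, and Il17f had means of 0.407 and 0.393. The other ligands had means of 0.302 and 0.342 units (Il17b), 1.10 and 1.05 (Il17c), 0.558 and 0.572 (Il17d), and 0.618 and 0.563 (Il25), and the receptors of 0.213 and 0.239 (Il17ra), 0.921 and 1.05 (Il17rb), 0.620 and 0.677 (Il17rd), and 1.35 and 1.25 (Il17re). Outside these families, the CD4 ligand Il16 had means of 1.24 and 1.36 units, Il34, a ligand of the CSF-1 receptor, of 0.196 and 0.249 units, and Il4i1, a secreted amino acid oxidase, of 0.424 and 0.343 units.

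Several members lie next to each other in the genome. At chr11:53612460-54267279, Il5 was lower at the unadjusted threshold while the log2 fold changes of Il4, Il13 and Il3 were 0.16, -0.08 and -0.05. At chr1:130882074-131024970, Il10 was higher while those of Il24, Il20 and Il19 were -0.12, -0.28 and 0.16. At chr1:40084692-40551707, Il18rap was higher while those of Il18r1, Il1r1 and Il1r2 were 0.12, -0.11 and -0.26. Of the 5 genes at chr2:24186476-24351491 (Il1f9, Il1f6, Il1f5, Il1f10 and Il1rn) and of the 3 at chr7:125552271-126595035 (Il4ra, Il21r and Il27), 0 were under the unadjusted threshold in limma. The adjacent receptor genes Il17re (chr6:113458699-113470758) and Il17rc (chr6:113471455-113483163) had log2 fold changes of -0.11 and -0.13. A dimmer tested probe for Il17re went the other way, with a log2 fold change of 0.31 (means 0.225 and 0.270 units).

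Of 64 tested genes of interleukin signalling that are no members (partner chains and related cytokines, JAK and STAT genes, their inhibitors, the MyD88 and NF-kB route, and inflammasome genes), 2 were under the unadjusted threshold and both were lower, against 4.85% of named genes. Csf3, the granulocyte colony-stimulating factor, measured 11.1, 10.7, 13.7 and 9.63 units in vehicle mice and 8.38, 8.38, 7.67 and 5.07 units in pioglitazone mice. Its groups did not overlap (log2 fold change -0.63, SE 0.20, limma p = 0.011, adjusted p = 0.84, 2-sided exact permutation p = 0.029). Irak1, a kinase of the IL-1 receptor complex, measured 17.9, 18.8, 28.7 and 14.4 units against 13.6, 13.7, 14.6 and 11.2 units, with vehicle mouse 4 inside the pioglitazone range (log2 fold change -0.55, SE 0.21, limma p = 0.030, 2-sided exact permutation p = 0.057). None of the 10 JAK and STAT genes and none of the 13 inhibitor genes tested was under the threshold in limma. The median log2 fold change of the 64 genes was -0.07. With the mouse number as a block, 6 of the 64 were under the unadjusted threshold (background 8.02%), adding Csf3r, Osm and Ctsg as lower and Cish, an inhibitor induced by STAT5, as higher, all named after their values were seen. Their log2 fold changes were -0.55, -0.34, -0.40 and 0.34.

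Summed markers of other cells that could carry interleukins overlapped between the groups, with 1 exception. Macrophage markers (12 tested, 0 under the unadjusted threshold in limma, 1 with a positive estimate) summed to 112.0 to 166.6 units in vehicle mice and 101.6 to 138.6 units in pioglitazone mice. B-cell markers summed to 13.3 to 20.4 and 12.6 to 17.6 units. Of the 7 tested, 3 were under the unadjusted threshold, against 4.85% of named genes. Cd79a was lower (log2 fold change -0.43), and Cd79b and Ms4a1 were higher (0.36 and 0.32). Neutrophil, mast cell and eosinophil markers summed to 16.6 to 19.2 and 14.8 to 20.2 units. Of the 14 tested, 1 was higher at the unadjusted threshold (same background), and 11 had positive estimates. Adipocyte markers summed to 43.5 to 87.9 units in vehicle mice and 28.7 to 155.4 units in pioglitazone mice, with pioglitazone mouse 1 the highest. Without that mouse 10 members were under the unadjusted threshold, against 7.61% of named genes, and 5 of them were among the 6 above. The 1 list whose sums did not overlap was that of theca and luteal markers (6 genes). It summed to 372.1 to 568.9 units in vehicle mice and 313.1 to 359.6 units in pioglitazone mice. Each of its genes overlapped between the groups, and 0 passed the unadjusted threshold in limma. The largest values in the sum were those of Hsd3b1 (113.3 to 241.8 units over all mice) and Cyp17a1 (7.17 to 297.1 units). With the mouse number as a block, Star, Cyp11a1 and Akr1c18 of this list were lower at the unadjusted threshold (background 8.02%). The block also put 4 of 14 neutrophil, mast cell and eosinophil markers and 2 of 12 macrophage markers under it. So were 2 of 7 in each of the B-cell, granulosa and endothelial lists, and 1 of 7 surface and oviduct markers. In the T and NK cell, oocyte, adipocyte and red blood cell lists, 0 were. Without the block, limma put 1 of 7 granulosa markers, Fst, under the threshold as higher (log2 fold change 0.66, background 4.85%). All 7 granulosa estimates were positive, and the sums were 72.6 to 100.6 units in vehicle mice and 74.9 to 144.8 units in pioglitazone mice. Also without the block, 1 of 7 endothelial and 1 of 7 surface and oviduct markers were lower (same background). The part of these cells in the interleukin values was not tested.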

How the data were processed

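Whole-ovary RNA was hybridised to CodeLink arrays, 1 per mouse. The authors scanned the slides, corrected for background, scaled to the slide median, and deposited 1 linear intensity per probe and mouse. The methods also name a division of each gene by its median, but the deposited values did not show it. Spots coded -9999 were treated as missing. Array signals carry no read depth, so the number of mice limits the precision.

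Values were set relative to the median of their array, and those under 0.05 were raised to 0.05 before log2. Testing required 3 values or more per group and 1 group mean no lower than 0.2. The groups were compared without covariates in limma (version 3.58.1, R 4.3.3), and Benjamini-Hochberg adjustment ran over all probes that entered the test. The fit was tested on simulated data. Ratios are of linear means, and log2 fold changes are from limma. Exact permutation tests used mean log2 values. All 75 members matched a RefSeq gene by identifier.

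All 8 values were given for members at an unadjusted p under 0.05, without overlap of groups, or with a mean of at least 5, and group means or ranges for the rest. Il10rb, Il13ra2 and Il1rap were described further after their values had been seen. The members, gene lists and alternatives were chosen with earlier results of these data known. The main limma fit, the t-test and the permutation tests did not pair the mice. Among the fits, only that with the mouse number as a block did so. The block was used since the deviations of same-numbered mice correlated at 0.504, 0.180, 0.274 and 0.213. Vehicle mouse 2, however, correlated best with pioglitazone mouse 3 (0.370). As these correlations came from the same data, the block results are descriptive. The labels do not say what the numbers share. Alternatives covered the floor, scaling, filter, test, block, probe choice and each mouse left out.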

Additional observations from a re-analysis of the deposited data

Results flagged for a closer look

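In 9 of the 142 groups of 4 mice checked, 1 mouse was separated from the rest by most of the group's range, and chance flags about 1 in 20 such groups. Vehicle mouse 3 was low for Il6st (8.86 units, others 20.8 to 21.8) and high for Il19 (1.32, others 1.05 to 1.08). Vehicle mouse 1 was high for Il16 (1.43, others 1.15 to 1.19), as was pioglitazone mouse 2 (1.43, others 1.32 to 1.34). Pioglitazone mouse 1 was high for Il17f (0.523, others 0.340 to 0.367) and for Il20 (0.725, others 0.575 to 0.594). Pioglitazone mouse 4 was low for Il17ra, under the limit of sensitivity (0.156, others 0.264 to 0.274). Vehicle mouse 2 was low for Il27 (0.445, others 0.604 to 0.632). Vehicle mouse 4 was high for Il4 (0.258), whose other vehicle values of 0.151 to 0.169 were under the limit.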

How the results depend on the processing

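The count of members at an unadjusted p under 0.05 was 6 in limma. It was 3 (Il5, Il21 and Il11, against 4.97% of named genes) where a probe had to reach 0.2 on every array. The other alternatives that kept all mice or left out 1 mouse of each group gave 4 to 8. Their shares of named genes were 4.05 to 8.68%, highest with 1 mouse of each group left out, as was the count. Leaving out 1 mouse gave 2 to 10, against 2.14 to 7.61% of named genes, with the lowest counts without vehicle mouse 2 (4.04% of named genes) or pioglitazone mouse 3 (3.87%) and the highest without pioglitazone mouse 1 (7.61%). The adjusted count was 0 under all 20 alternatives. With the mouse number as a block (8.02% of named genes), the members' count was 7 and that of the signalling genes was 6 in place of 2. Il13ra2 was the 1 member whose call changed. The signalling count was 4 with array weights (6.14% of named genes). It was also 4 when vehicle mouse 3 and pioglitazone mouse 1 were both left out (8.68%). Without 1 mouse it was 1 to 7, lowest without vehicle mouse 2 (4.04%) and highest without pioglitazone mouse 1 (7.61%). The members' median log2 fold change, near 0 throughout, was -0.047 to 0.033 without 1 mouse, 0.012 with quantile normalization and 0.0062 with array weights.

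Il22ra2, whose pioglitazone mean was under 0.2, was not tested where a probe had to reach 0.2 on every array. Il10 and Il18rap, with vehicle values under 0.2, were not tested there either, and 0 members were then higher at the unadjusted threshold. Beside the removal of single mice, Il5 lost its call with quantile normalization, Il21 without both named mice, Il18rap without both and with the methods' t-test, Il10 with a floor of 0.2 and an intensity trend, and Il11 with no filter, an intensity trend, the methods' t-test, array weights, and without both mice. Quantile normalization reversed Il23a (0.012) and Il2rb (0.024), array weights reversed Il18 (-0.028) and Il6st (-0.21), and leaving out both mice reversed Il18 (-0.20) and Il6st (-0.31), with Il6st and Il13ra1 (-0.73) then under the unadjusted threshold, against 8.68% of named genes. Without 1 mouse the log2 fold changes ran from -0.19 to 0.045 for Il23a, from -0.099 to 0.014 for Il2rb, from -0.11 to 0.33 for Il18, from -0.28 to 0.15 for Il6st, from -0.62 to -0.21 for Il13ra1, and from -0.27 to 0.0028 for Il17rc. The cause of these changes was not tested. For members near 0.2 units, low signal limits what a difference can show.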
